A study of Mus musculus with 3 samples.

Results

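The liver of mice given EEC, an ethanol extract of Ecklonia cava, which is a brown alga, followed by trimethylamine (TMA) was compared with the liver of mice that received no treatment. Every probe set of the main category of the MoGene-2_0-st array was considered, 33793 of 41345 in all, and for each gene symbol the probe set with the highest mean over the 3 arrays of the series was kept. This gave 30921 genes, of which 15833 lay above background on both of the arrays compared. All mice belonged to ICR, an outbred laboratory stock, entered the experiment at 8 weeks of age and were sampled at 10 weeks, and 100 mg of frozen liver was used for RNA. The EEC+TMA group received the extract by mouth for 2 weeks and TMA for 24 hours. The TMA group, whose values are given beside the others, received distilled water for 2 weeks and TMA for 24 hours. No water or TMA is recorded for the untreated group. The 2 groups compared therefore differ in the extract, in TMA and in any handling that giving them involved. The shares of these in a difference cannot be told apart here. The sex of the mice, the doses, the route of TMA and any pooling of RNA are not stated in the labels. There was 1 array per group, so neither a spread between animals nor a test could be had, and the differences below are differences between arrays.

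Trimethylamine smells of fish, and flavin-containing monooxygenases of the liver oxidise it to an odourless product, and the study concerns deodorization by the alga. Hepatocytes fill most of the liver and make plasma proteins, bile acids and detoxifying enzymes, while resident macrophages called Kupffer cells line its sinusoids. Interferons act through JAK kinases and transcription factors that bind interferon-stimulated response elements (ISRE) and gamma-activated sites (GAS) in promoters. The genes switched on this way include the peptide-presenting MHC proteins, the immunoproteasome and GTPases that attack intracellular parasites.

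The values are log2 levels as deposited, and 3 levels in a row are given in the order untreated, TMA, EEC+TMA. The background of an array was set at the 95th percentile of its chemosensory receptor probe sets, which read genes silent in liver, and came to 3.15, 3.26 and 3.16. Differences are EEC+TMA minus untreated on the log2 scale, after each value below background was raised to it. The label of the tissue was borne out by 10 of 10 hepatocyte markers above background on every array, among them albumin (Alb) at 13.29, 13.29 and 13.33. The poly-A spike-in controls, which are added in known amounts, had a median difference of -0.07, or -0.13 among the 30 above background on both arrays, of which 20 were lower and 6 higher. This is as large as several list medians below. Exon control probe sets had a median of 0.02. Antigenomic background control probe sets leaned the other way, with 10 of 23 higher and 0 lower. Among the 11 above background on both arrays 10 were higher and the median was 0.15, also as large as several list medians below. Intron control probe sets had a median difference of -0.17, with 3152 of 5331 lower and 1858 higher. Of the genes measured on both arrays, 53.9% had exactly the same deposited value on the pair, which sets the median difference at 0. In whole-liver RNA, fewer cells of a type and less RNA per cell cannot be told apart.

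Few genes stood far apart. Of the 30921 genes, 202 (0.653%) differed at least 2-fold, of which 26 (0.0841%) stood above and 176 (0.569%) below untreated. Of the 1512 chemosensory receptor genes, which set the background, 0 differed that far after values were raised to it and 6 without it. Among the 15833 genes measured on both arrays, 189 (1.19%) differed that far, 26 (0.164%) were at least 2-fold higher and 163 (1.03%) at least 2-fold lower, while 25.9% were higher and 20.2% lower by any amount. The middle 95% of these differences ran from -0.67 to 0.41. Small RNA genes, microRNA genes and predicted or numbered loci made up 15 of the higher and 70 of the lower genes, which left 11 higher and 106 lower genes with established names. Quantile normalization moved the exactly equal genes by small amounts, so that 12813 genes became higher, 3001 lower and 17 equal, with a median of 0.02. Under quantile, loess and median scaling the median of 1 list, the male-biased genes, took values on both sides of 0.

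**Figure D1:**
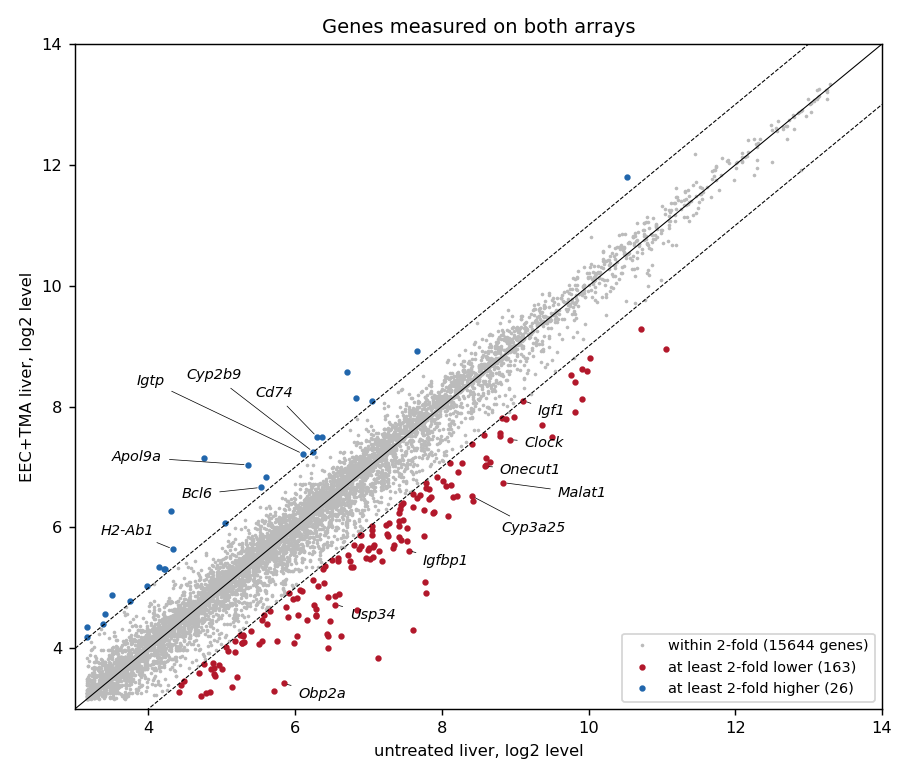
Log2 level on the EEC+TMA array (vertical) against the untreated array (horizontal) for the 15833 genes measured on both, with lines at equality and at 2-fold either way. The 163 genes at least 2-fold lower span most of the range of levels, whereas the 26 at least 2-fold higher are few and include Apol9a, H2-Ab1 and Cd74.

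The 11 named genes at least 2-fold higher were Apol9a, Apol9b, H2-Ab1, Gbp10, Cd74, Bcl6, Slc41a2, Igtp, Esd, Cxcl9 and Cyp2b9. Interferon-stimulated and MHC genes led this list. Apol9a, an interferon-induced gene of the apolipoprotein L family, placed by the files (build not given) at chr15:77403789-77411080 on the minus strand, had levels of 5.35, 5.99 and 7.04. It was 3.21-fold higher on the EEC+TMA than on the untreated array. Its neighbour Apol9b had levels of 6.83, 7.29 and 8.15, 2.50-fold higher, but its probe set cross-matches further transcripts, so the pair cannot be fully separated. Igtp, an immunity-related GTPase at chr11:58199556-58207592, had 6.10, 6.10 and 7.22 and was 2.16-fold higher. Cxcl9, a chemokine that draws T cells and is induced by interferon gamma, had 5.05, 5.31 and 6.07 and was 2.03-fold higher. For Igtp the TMA array equalled the untreated one, whereas for Apol9a, Apol9b and Cxcl9 it lay between the others.

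The promoters of 3 of these genes are shown because they belong to the genes with the largest increases and differ in the interferon motifs they hold. Each is the first RefSeq window listed for the gene on build GRCm38.p6, from 250 bases before to 50 bases after the transcript start, on the strand of the gene. Capitals mark the ISRE core (GAAA, any 2 bases, GAAA) and the CCAAT box in Apol9a (chr15:77411031-77411330, minus strand), the GAS (TTCNNNGAA) and the ISRE core in Igtp (chr11:58199306-58199605, plus strand), and a TATA box (TATAAA) and the CCAAT box in Cxcl9 (chr5:92328030-92328329, minus strand). All motifs were searched on both strands.
Apol9a: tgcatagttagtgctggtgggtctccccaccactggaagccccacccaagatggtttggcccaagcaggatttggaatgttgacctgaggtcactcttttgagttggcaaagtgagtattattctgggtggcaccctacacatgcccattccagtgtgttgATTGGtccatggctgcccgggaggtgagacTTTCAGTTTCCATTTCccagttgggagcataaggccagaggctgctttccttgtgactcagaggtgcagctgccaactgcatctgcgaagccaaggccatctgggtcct
Igtp: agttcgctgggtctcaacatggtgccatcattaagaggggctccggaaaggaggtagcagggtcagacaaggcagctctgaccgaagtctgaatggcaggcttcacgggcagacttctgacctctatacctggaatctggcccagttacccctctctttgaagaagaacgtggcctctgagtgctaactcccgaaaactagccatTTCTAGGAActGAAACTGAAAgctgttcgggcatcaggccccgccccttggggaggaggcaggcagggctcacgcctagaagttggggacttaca
Cxcl9: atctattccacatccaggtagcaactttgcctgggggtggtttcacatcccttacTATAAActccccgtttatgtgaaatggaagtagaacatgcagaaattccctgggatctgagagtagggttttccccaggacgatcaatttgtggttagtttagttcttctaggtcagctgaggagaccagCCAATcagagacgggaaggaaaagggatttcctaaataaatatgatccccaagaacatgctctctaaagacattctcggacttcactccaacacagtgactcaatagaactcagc
In Apol9a the ISRE core occurred in 2 copies that share their inner letters, from 59 bases before the start, and on the opposite strand. In Igtp the GAS began 45 and the ISRE core 34 bases before the start, and the 2 motifs did not overlap. The Cxcl9 window held neither letters of an ISRE core nor of a GAS, which says nothing about binding elsewhere. Of the 25 genes with the largest increases, 18 had a window in the table, and 4 of these, Apol9a, Apol9b, Igtp and Saa3, held an ISRE core (22.2%). The share was 3.99% among all 27025 genes of the table and 3.69% among 9601 genes measured on both arrays, and of the 25 genes with the largest decreases 17 had windows, and 0 of these 17 genes had one with an ISRE core. Of the 4 genes with an ISRE core, Apol9a and Apol9b are the neighbouring pair named above and do not count as independent genes. The GAS was in the windows of 3 of the 18 and 2 of the 17 genes, against 9.55% of all genes. The promoter of H2-Ab1 was not used here, nor that of Gbp10.

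MHC class II genes, whose products present peptides taken up from outside the cell, were higher without exception among those measured. Of the 12 listed genes 5 were measured on both arrays, and 5 were higher, 2 of them at least 2-fold, against 25.9% and 0.164% of all genes measured. H2-Ab1, the class II beta chain, had levels of 4.33, 4.38 and 5.64, a 2.48-fold increase over untreated. Cd74, the invariant chain that guards the class II groove, had 6.29, 6.61 and 7.50, a 2.31-fold increase. The TMA array stood close to the untreated one for H2-Ab1 and nearer to it than to the EEC+TMA array for Cd74. Ctss, the protease that trims the invariant chain, had 5.98, 5.98 and 6.48. H2-Eb1 and H2-Aa, further class II chains, differed by 0.29 and 0.17. The median of the 5 was 0.50. The remaining 7 genes gave no difference: H2-DMa, H2-DMb2 and the class II transactivator Ciita had the same value, equal to the EEC+TMA background, on every array, and counting such values as measured lowers the median to 0.23 (0.17 with the background at the 90th percentile).

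MHC class I genes, which display peptides made inside the cell, showed the same direction at smaller size. Of 16 measured genes 12 were higher, 0 lower and 4 identical, with a median of 0.27, and none reached 2-fold. Among all measured genes 25.9% were higher and 20.2% lower. Under loess 1 of the 16 became lower. The heavy chain H2-K1 had levels of 7.44, 7.44 and 8.27 and was 1.78-fold higher. Psmb10, a catalytic subunit of the immunoproteasome, had 5.52, 5.70 and 6.33 and was 1.76-fold higher. Another such subunit, Psmb8, had 5.79, 6.09 and 6.32, while the remaining one, Psmb9, was at 4.73 on each array. The peptide transporter genes Tap1 and Tap2 differed by 0.54 and 0.23, and the light chain B2m went from 11.46 to 11.72 between the untreated and EEC+TMA arrays. The heavy chain H2-D1 was identical at 3.95, a low level for a gene of this class. Class I genes have near-identical copies, so their probe sets may share signal.

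**Figure D2:**
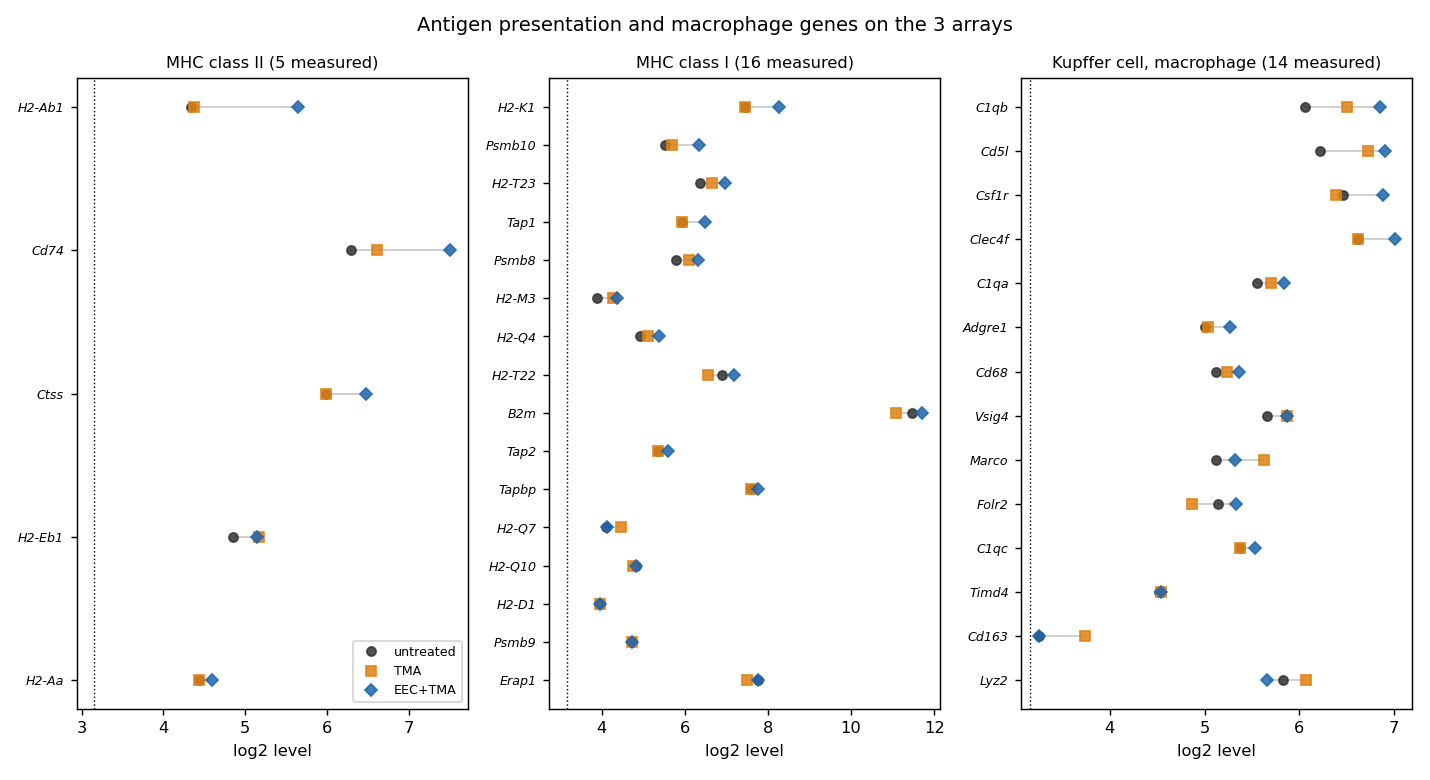
Log2 levels of the measured MHC class II, MHC class I and Kupffer cell or macrophage genes on the 3 arrays (circles untreated, squares TMA, diamonds EEC+TMA), with a dotted line at the EEC+TMA background. The EEC+TMA value lies rightmost for most genes, and Lyz2 is the only one of the 35 rows in which it lies left of the untreated value.

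Interferon-stimulated genes as a whole were split between higher and identical genes. Among 28 measured genes of the type I interferon response 14 were higher, 1 lower and 13 identical, with a median of 0.01. The shares over all measured genes were 25.9% higher, 20.2% lower and 53.9% identical, so many identical genes are common to the whole array. Irf9, a subunit of the ISRE-binding complex, had levels of 5.17, 5.17 and 5.99. Zbp1, a sensor of unusual nucleic acids, had 4.58, 5.0 and 5.32, and Ifi27 had 5.36, 5.21 and 5.95. Bst2, which tethers viruses to the cell surface, had 6.97, 6.81 and 7.43. On the other hand the antiviral genes Ifit1, Oas1a, Oas3, Rsad2 and Usp18 were identical between the pair, at levels between 3.68 and 4.47. Ifit3 was measured on the EEC+TMA array alone, at 4.14, at least 1.99-fold above the untreated background, by a cross-matching probe set.

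The interferon-induced GTPases were as uneven, with 5 of 13 measured genes higher, 2 lower and 6 identical. The shares over all measured genes were 25.9%, 20.2% and 53.9%. Gbp10 had levels of 7.67, 8.02 and 8.91, 2.37-fold higher, again by a cross-matching probe set, in a duplicated family. Gbp11 and Irgm2 differed by 0.34 and 0.27. In contrast Iigp1 went from 7.80 to 7.60 and Gbp7 from 5.77 to 5.58. Gbp2, Irgm1 and Ifi47 were identical. Of the receptors and regulators, Irf1, which interferon gamma induces, differed by 0.47, whereas Ifngr1, Ifngr2, Socs1 and Socs3 were identical, Jak1 differed by 0.16 and Jak2 by -0.37. Among 13 measured chemokines and cytokines only Cxcl9 passed 2-fold, Cxcl10 differed by 0.25, and Ccl5 and Cxcl11 were identical.

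Markers of Kupffer cells and macrophages were higher beside these genes. All 14 listed markers were above background on every array, 12 were higher, 1 was lower and 1 identical, and the median was 0.23. Among all measured genes 25.9% were higher and 20.2% lower. C1qb, a chain of complement C1q that macrophages make, had levels of 6.06, 6.50 and 6.85. Cd5l, a secreted macrophage protein, had 6.22, 6.73 and 6.90, and Csf1r, the receptor for their growth factor, had 6.46, 6.39 and 6.88. Clec4f, a lectin found on Kupffer cells in mice, had 6.62, 6.62 and 7.01. The lysozyme gene Lyz2 was the exception, at 5.82, 6.07 and 5.66, and Cd163 was at 3.25 on both arrays compared. Mpeg1, a pore-forming protein of macrophages outside the list, had 6.17, 6.46 and 7.03 and was 1.82-fold higher. Summed on the linear scale the 14 markers came to 693, 784 and 887 units. Against untreated, the TMA array, which shares the untreated array with this comparison, had 10 of these markers higher and 2 lower, with a median of 0.13. The part of macrophage RNA in the MHC and interferon differences was not tested.

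Markers of other blood cells were mostly identical or not measured on both arrays, while sinusoidal endothelial markers were mostly higher by small amounts. Of 14 T and NK cell markers 6 were measured, with 1 higher (Cd4, 4.41, 4.41 and 4.79) and 5 identical, and their summed level was 147, 154 and 153. Of the defining T cell genes, Cd3d, Cd3g and Cd8a did not exceed background on both arrays. Of 10 neutrophil markers 1 was measured, and it was identical. Monocyte and dendritic cell markers had 4 of 12 measured, with Fcgr1 higher at 3.68 against 3.22. B and plasma cell markers had 3 of 5 measured genes higher, with a median of 0.09. Itgal, the integrin chain of circulating leukocytes, had 4.51, 5.07 and 5.42 and was 1.88-fold higher. Sinusoidal endothelial markers had 10 of 15 higher and 1 lower, with a median of 0.05, against 25.9% and 20.2% of all measured genes. Their summed level was 1906, 1491 and 2111. Stellate cell and fibroblast markers had 3 of 13 higher and 5 lower, and Lrat, the enzyme that stores vitamin A in stellate cells, differed by -0.60. Hepatocyte markers themselves had 9 of 10 higher, with a median of 0.16, against 25.9% higher among all measured genes. Among abundant genes with a locus of 10643 to 15302 bases, a range that holds the median of these markers, 49.9% were higher.

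Other genes among the highest have roles in metabolism, transport or transcription. Cyp2b9, a xenobiotic P450 that is more abundant in females, had levels of 6.24, 8.27 and 7.26. It was 2.02-fold above untreated on the EEC+TMA array and 4.09-fold on the TMA array. Bcl6, a repressor that is more abundant in male liver and is kept down by growth hormone signalling, had 5.53, 5.20 and 6.66, 2.19-fold higher. Moxd1, a male-biased monooxygenase-like gene, had 4.07, 3.38 and 5.07, which falls just short of 2-fold (1.999). For Bcl6 and Moxd1 the TMA array lay below the untreated one, on the opposite side from EEC+TMA. Slc41a2, a magnesium transporter, had 6.37, 6.92 and 7.49, 2.17-fold higher. Esd, an esterase of formylglutathione, had 3.98, 4.21 and 5.02 from a probe set of 8 probes. Pltp, the phospholipid transfer protein of plasma, had 7.22, 7.61 and 8.07, and Saa3, an acute phase protein of macrophages and other cells outside hepatocytes, had 3.70, 3.68 and 4.57.

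The enzymes that conjugate or reduce foreign compounds lay on both sides of untreated. Of 37 measured conjugating enzymes 21 were higher and 9 lower, with a median of 0.07. The shares over all measured genes were 25.9% and 20.2%. Among abundant genes with a locus of 10643 to 15302 bases, a range that holds the list's median of 12224 bases, 49.9% were higher. The glutathione transferases Gstm3, at 6.84, 6.66 and 7.80, and Gstm2, at 5.65, 5.84 and 6.23, led the higher side. The glucuronosyltransferases Ugt2b35, Ugt2b5, Ugt2b36 and Ugt2b34 were lower by 0.42, 0.38, 0.38 and 0.37, and the sulfotransferase Sult2a8 differed by -0.61. Among the targets of NRF2, a transcription factor of oxidative stress, Hmox1, which breaks down haem, had 5.10, 5.60 and 5.89, and the carbonyl reductase Cbr1 had 6.25, 5.66 and 7.04. Nqo1, Gclc, Txnrd1 and Gsr were identical, and Gclm differed by -0.39. The mean of both Cbr1 probe sets gave 0.40 in place of 0.79. Superoxide and peroxide enzymes stayed within 0.38 of untreated.

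Among the flavin-containing monooxygenases, Fmo1 differed by 0.08, Fmo5 by -0.03, Fmo2 by -0.29, and Fmo4 by 0.00. Of the 24 measured genes of TMA oxidation and choline handling 13 were higher, 6 lower and 5 identical, with a median of 0.08. The shares over all measured genes were 25.9%, 20.2% and 53.9%. Among abundant genes with a locus of 21498 to 29293 bases, a range that holds the list's median, 45.1% were higher and 27.6% lower. The carnitine carrier Slc22a5 had levels of 5.05, 4.65 and 5.50. Bhmt and Bhmt2, which use betaine to remake methionine, differed by 0.42 and 0.24, the glycine methyltransferase Gnmt by 0.39, and Pemt, which makes choline lipids, by 0.21. The choline carrier Slc44a1 differed by -0.26.

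Genes of fatty acid oxidation stayed below 2-fold. Of 41 measured genes 26 were higher and 8 lower, with a median of 0.07. Among all measured genes 25.9% were higher, and among abundant genes with a locus of 15305 to 21488 bases, a range that holds the median of this list (19630 bases), 46.4% were. Cyp4a10 and Cyp4a14, fatty acid hydroxylases under the receptor PPARalpha, had levels of 8.08, 7.28 and 8.78, and of 8.91, 8.33 and 9.41. The lipid droplet protein Plin2 differed by 0.50 and the lipase inhibitor Angptl4 by 0.46. Abcd2, a peroxisomal fatty acid transporter, went the other way, at 4.59, 5.50 and 3.77. Cholesterol and fatty acid synthesis was divided, with 19 of 39 genes higher and 10 lower. Among abundant genes with a locus of 21498 to 29293 bases, a range that holds its median, 45.1% were higher and 27.6% lower. Hmgcs1 and Idi1, of the cholesterol pathway, each differed by -0.43, whereas Sqle and Mvk of the same pathway differed by 0.44 and 0.46.

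The lowest named gene was Obp2a, an odorant-binding lipocalin at chr2:25700043-25703326, with levels of 5.84, 4.21 and 3.42, a 5.37-fold decrease. Igfbp1, a hepatic binding protein of insulin-like growth factors that insulin represses, had 7.55, 5.03 and 5.62, a 3.80-fold decrease. Cyp3a25, a P450 of drug and steroid oxidation, had 8.41, 6.52 and 6.52, a 3.71-fold decrease from a probe set of 8 probes. Both arrays with TMA were low for Igfbp1 and Cyp3a25. Onecut1, a liver transcription factor also called HNF6, had 8.59, 7.08 and 7.01, a 2.99-fold decrease. The growth factor Igf1 had 9.11, 8.38 and 8.10, a 2.02-fold decrease that lies just past the threshold. Ghr, the growth hormone receptor, differed by -0.40.

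Other lower genes of hepatocyte function belonged to glucose, bile acid and transport pathways. In the list of gluconeogenesis and fasting, the glucose-releasing phosphatase G6pc had levels of 10.99, 9.67 and 10.10, and the insulin receptor substrate Irs2 had 6.89, 5.59 and 6.03. Pck1, the other gluconeogenic control enzyme, differed by 0.17, so the list had 8 genes higher, 8 lower and 10 identical of 26. Cyp7a1, the enzyme that sets the pace of bile acid production, had 9.40, 8.54 and 8.66. Cyp46a1, a cholesterol hydroxylase known from brain, had 7.42, 5.98 and 6.02, a 2.64-fold decrease. The uptake carrier Slco1a1, at 10.76, 10.05 and 9.77, fell just short of 2-fold (1.99), and the organic anion carrier Slc22a30 had 6.75, 4.48 and 5.35, a 2.65-fold decrease. Slc27a5, which activates bile acids, and Cyp27a1 of the alternative pathway differed by 0.39 and 0.28, and the bile acid list had 11 of 32 genes higher and 14 lower. The shares over all measured genes were 25.9% and 20.2%. Among abundant genes with a locus of 29301 to 41611 bases, a range that holds the median of the bile acid list, 35.1% were higher and 38.2% lower.

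Acute phase proteins were mixed, with 13 of 25 measured genes higher and 10 lower. Saa1 and Saa2, made by hepatocytes, had levels of 8.42, 8.91 and 8.19, and of 8.38, 9.44 and 7.81. For both, EEC+TMA was lowest and TMA highest. Lbp, which binds bacterial lipopolysaccharide, had 8.83, 7.92 and 8.05. In the clock list of 21 measured genes Clock, a core activator, had 8.93, 8.14 and 7.45, and the repressor Nr1d2 had 5.65, 4.99 and 4.68, whereas Arntl, Per1, Per2 and Cry1 were identical. Zbtb20, a repressor abundant in liver, had 8.22, 6.92 and 6.92, 2.46-fold lower on the EEC+TMA array, and the nuclear receptors Rora and Nr3c1 differed by -0.68 and -0.47. Hnf4a, a master factor of hepatocytes, was identical at 9.87.

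**Figure D3:**
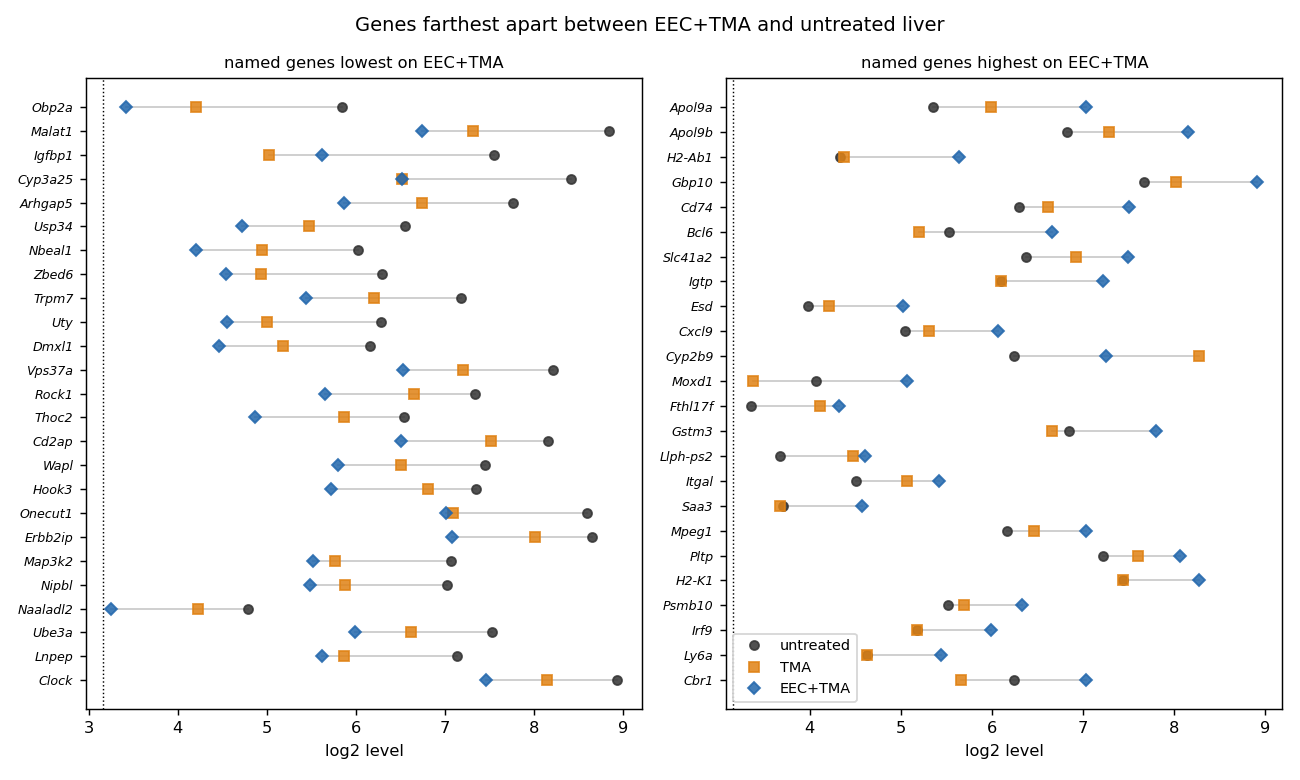
Log2 levels on the 3 arrays of the named genes lowest (left) and highest (right) on the EEC+TMA array relative to untreated, with a dotted line at the EEC+TMA background. Obp2a, from 5.84 to 3.42, leads the left panel and Apol9a, from 5.35 to 7.04, the right, and Cyp2b9 is highest on the TMA array at 8.27.

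The lower genes also included Malat1 and genes of signalling, transport and nuclear processes. Malat1, a long non-coding RNA of nuclear speckles at chr19:5795690-5802671, had levels of 8.84, 7.31 and 6.74, a 4.28-fold decrease. Arhgap5, a regulator of small GTPases, had 7.76, 6.74 and 5.86, and Usp34, a deubiquitinating enzyme, had 6.55, 5.47 and 4.73, decreases of 3.71-fold and 3.54-fold. Trpm7, a magnesium and calcium channel with a kinase domain, had 7.18, 6.20 and 5.44. Rock1, a kinase of the cytoskeleton, had 7.33, 6.65 and 5.65. Thoc2, a subunit of the mRNA export complex, had 6.54, 5.87 and 4.86, and Cd2ap, an adaptor of the actin cortex, had 8.15, 7.51 and 6.50. In each of these the order was the same, with untreated highest and EEC+TMA lowest. They were named for their low EEC+TMA values, which favours this order. Whole lists given below had the TMA array lower than EEC+TMA. For ubiquitin, chromatin, endosome and splicing genes the median differences from untreated were -0.59, -0.55, -0.33 and -0.28 on the TMA array. On the EEC+TMA array they were -0.21, -0.14, -0.06 and -0.09. Tet2, an oxidase of DNA methyl groups, was measured on the untreated array at 5.28 and lay below background on the EEC+TMA array, at least 4.36-fold lower, although at the 99th percentile background the difference was -0.98.

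Endosome and vesicle trafficking genes had 22 of 37 measured members lower, 3 higher and 12 identical, with a median of -0.06, and 5 were at least 2-fold lower. Among all measured genes 20.2% were lower and 1.03% at least 2-fold lower. This list, like those of the next paragraph, was chosen with earlier results of these data known. Its count beside that share is therefore a description and no support for a shared function. The median locus of this list was 46165 bases. Among genes with a locus of 41635 to 62919 bases, 29.4% at middle level and 45.3% of abundant ones were lower. Under quantile normalization, where most equal genes became higher, 20 were lower and 17 higher, with a median of -0.04. Among all measured genes it gave 3001 lower and 12813 higher. Nbeal1, a BEACH-domain protein, had levels of 6.02, 4.95 and 4.21, a 3.52-fold decrease. Dmxl1, which helps acidify vesicles, had 6.16, 5.18 and 4.46. Vps37a, a subunit of the ESCRT-I sorting complex, had 8.21, 7.20 and 6.52. Eea1, a tether of early endosomes, had 6.97, 6.53 and 5.50, and Vps13a, a lipid transfer protein, had 4.85, 4.25 and 3.65. Members of the opposite sign were Chmp4b and Chmp2a of the ESCRT-III complex, which differed by 0.34 and 0.12.

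Ubiquitin ligases and peptidases had the lowest median of the pathway lists, -0.21, with 22 of 30 genes lower and 3 higher (19 and 10 under quantile normalization). Among all measured genes quantile normalization gave 3001 lower and 12813 higher. The median locus of the ubiquitin list was 109658 bases. Among genes with a locus of at least 109367 bases, 37.4% at middle level and 56.9% of abundant ones were lower. Besides Usp34, the scaffold Cul3 had levels of 7.79, 7.32 and 6.74 and was 2.07-fold lower, though under 2-fold after quantile normalization. Cul5 had 5.97, 5.34 and 5.02, and Usp9x had 8.03, 7.51 and 7.24. Rnf213, a large ligase that interferon induces, went the other way, at 6.90, 6.06 and 7.40. Chromatin and scaffold genes had 25 of 40 lower and 8 higher, with a median of -0.14 and a median locus of 95467.5 bases. Among genes with a locus of 63022 to 109360 bases, 31.7% at middle level and 53.5% of abundant ones were lower. The remodeller Atrx had 5.90, 5.33 and 4.51, and the mediator subunit Med13 had 7.41, 6.61 and 6.24. Splicing factors and nuclear speckle RNAs had 22 of 36 lower and 3 higher, with a median of -0.09 (20 and 16 under quantile normalization). The helicase Ddx5 had 8.41, 6.81 and 7.39, at least 2-fold lower, though under 2-fold after quantile normalization and -0.72 as the mean of its probe sets, and Luc7l2 and the kinase Clk1 differed by -0.96 and -0.72. Zinc finger genes named Zfp had 60 of 217 lower, 19 higher and 138 identical, against 20.2% lower among all measured genes, and 60 lower and 157 higher under quantile normalization. Among the 7 Zfp genes at least 2-fold lower was Zfp871 at 7.27, 6.20 and 5.86.

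The lower genes lay in long loci. The median span from the first to the last base of the locus in the files was 75558 bases for the 103 named genes at least 2-fold lower on both measured arrays. It was 8805 bases for the 11 higher genes and 21489.5 bases for all 12576 named genes measured on both. When the latter were divided into 10 classes of equal size by span, 11.9% of the shortest class and 34.7% of the longest were lower by any amount, and 35.9% and 12.2% were higher. Genes at least 2-fold lower numbered 3 in the shortest class, 37 in class 9 and 26 in the longest. The mean difference went from 0.05 in the shortest class to -0.12 in class 9 and -0.11 in the longest.

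The same order was seen when genes were first divided by level. Among the most abundant genes 16.3% of the shortest and 56.9% of the longest class were lower, and 64.9% and 18.0% were higher. Among genes of middle level 9.94% and 37.4% were lower. Among the least abundant the shares were 10.4% and 12.1%, so the order was weak there. Intron control probe sets, which read unspliced RNA or DNA, were lower too, as given above, and among the 1104 measured on both arrays 606 were lower and 418 higher. Their part in the difference by span was not tested. Mean differences of the TMA array from the shared untreated array, set beside these, were -0.01 in the shortest and -0.22 in the longest class.

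**Figure D4:**
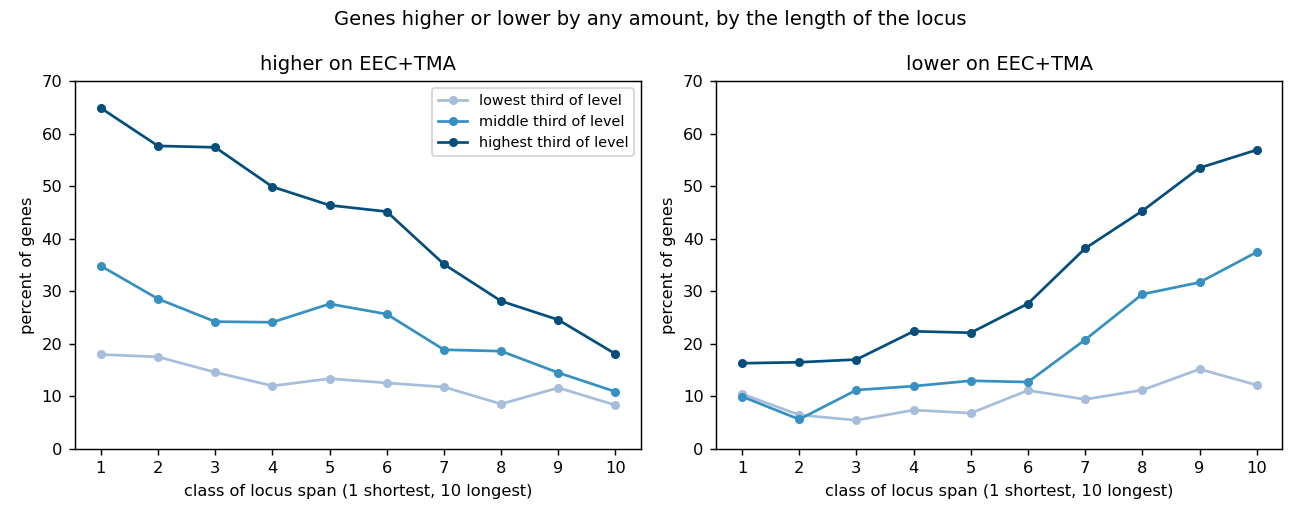
Percent of genes higher (left) and lower (right) on the EEC+TMA array by any amount, in 10 classes of locus span, drawn separately for low, middle and high mean level. Among abundant genes the share lower climbs from 16.3% in the shortest class to 56.9% in the longest, while the share higher drops from 64.9% to 18.0%.

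Several lists of protein turnover, secretion and respiration are set here beside 25.9% higher and 20.2% lower among all measured genes, and beside 64.9%, 57.6% and 57.4% higher among abundant genes in the 3 classes of shortest locus span. Proteasome subunits had 34 of 45 measured genes higher, 5 lower and 6 identical, with a median of 0.12. Apart from the immunoproteasome subunits, Psmb6 and Psmb5 differed by 0.42 and 0.32, while Psme4, an activator with a long locus, differed by -0.65. Apolipoproteins and plasma carriers had 24 of 29 higher and 2 lower, with a median of 0.11. Apoe and Apoc4 differed by 0.30 and 0.41, whereas Apob, the large protein of very-low-density lipoprotein, had levels of 12.50, 11.73 and 12.05. Nuclear-encoded respiratory chain subunits had 43 of 75 higher, 4 lower and 28 identical, with a median of 0.03, led by Uqcr10 and Ndufa3, which differed by 0.68 and 0.57. Cytosolic ribosomal proteins had 36 of 67 higher and 8 lower, with a median of 0.01. Genes for the proteins of the mitochondrial genome ran the other way, with 11 of 11 lower and a median of -0.16 (9 of 11 lower under quantile normalization), from ND6 at 11.20, 11.54 and 10.68 to COX1 at 13.25, 13.29 and 13.25.

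**Figure D5:**
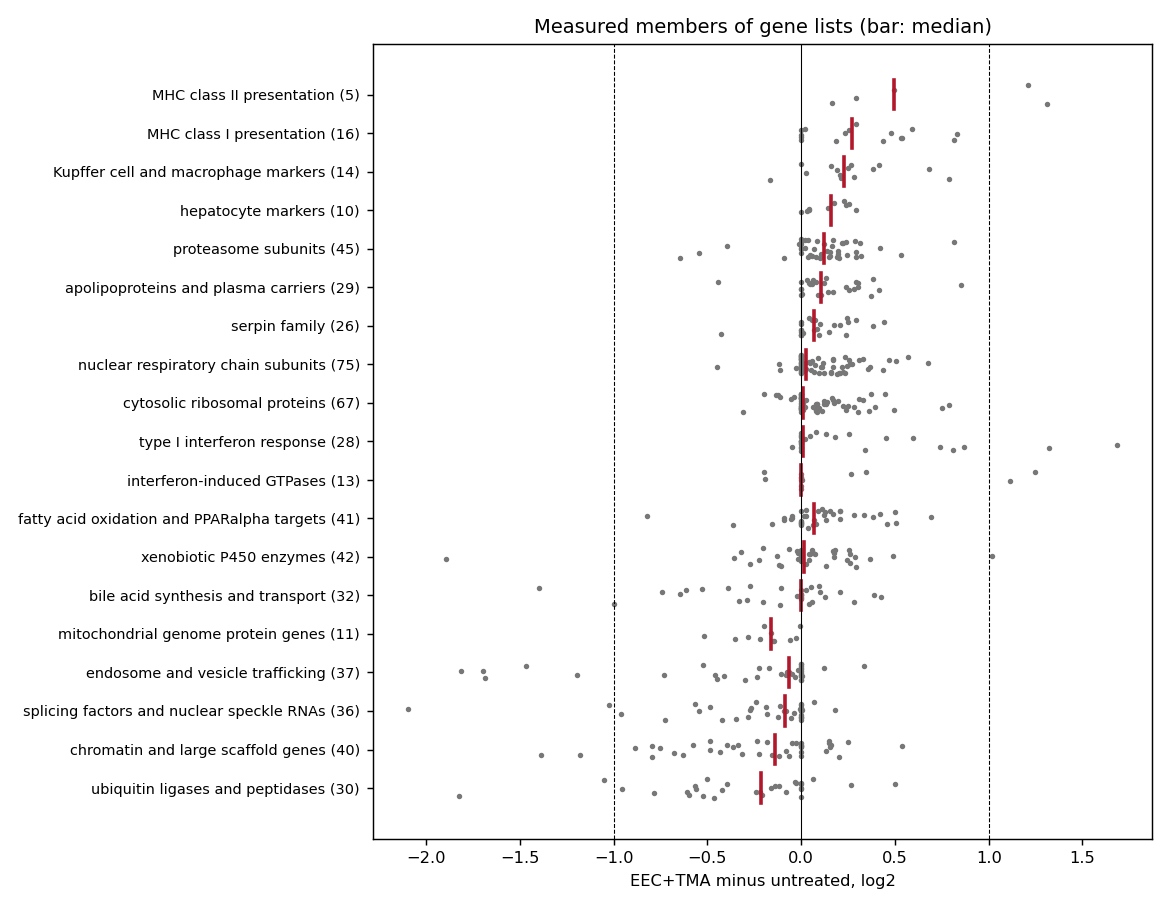
Differences (EEC+TMA minus untreated, log2) of the measured members of 19 gene lists, 1 point a gene, with a bar at each list's median, the number of measured members in parentheses and dashed lines at 2-fold. MHC class II and class I genes have the highest medians, 0.50 and 0.27, and ubiquitin ligases and peptidases the lowest, -0.21.

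Small nucleolar RNAs guide the chemical modification of other RNAs, and their genes lay on both sides of untreated. Of 115 measured small nucleolar, Cajal body and related RNA genes 73 were higher and 25 lower, with a median of 0.16, and 3 were at least 2-fold higher and 4 lower. Among all measured genes 25.9% were higher and 20.2% lower, and 0.164% and 1.03% were at least 2-fold higher and lower. Snord38a had levels of 6.71, 9.08 and 8.57, a 3.63-fold increase, and Snord57 had 9.50, 9.0 and 7.49, a 4.02-fold decrease.

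Of 563 microRNA genes 10 were at least 2-fold lower and 0 higher, against 0.569% and 0.0841% of all genes, and 4 of the 10 (Mir568, Mir3473d, Mir466j and Mir467c) were read by cross-matching probe sets. They held the largest difference of any gene. Mir505 had 6.53, 2.84 and 2.68, below background on both TMA-exposed arrays and at least 10.3-fold lower. Mir210, a microRNA induced by low oxygen, had 6.45, 5.37 and 4.85, and Mir15a, which represses cell cycle genes, had 4.44, 3.39 and 3.39. These probe sets read the locus of the hairpin and cannot separate mature microRNA from its precursor. The mature sequences from RefSeq (GRCm38.p6) are given to identify the 3 genes, with the seed (bases 2 to 8) in capitals.
mmu-miR-505-3p: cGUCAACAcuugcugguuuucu
mmu-miR-505-5p: gGGAGCCAggaaguauugauguu
mmu-miR-210-3p: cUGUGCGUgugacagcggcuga
mmu-miR-15a-5p: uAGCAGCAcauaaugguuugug
No pair among the 4 has the same seed.

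The 4 listed Y-linked genes were above background on all 3 arrays, and 4 of 4 were lower on the EEC+TMA array. On the TMA array 4 of 4 were also below untreated, with a median of -0.75. The shares over all measured genes were 25.9% higher and 20.2% lower. The median locus of these 4 was 35961.5 bases. With a locus of 29300 to 41622 bases, 20.8% of genes at middle level and 38.2% of abundant ones were lower. Uty, a histone demethylase gene in a long locus, had levels of 6.28, 5.01 and 4.56. Ddx3y, a helicase, had 7.33, 7.0 and 6.73, Eif2s3y, a translation factor subunit, had 6.50, 6.42 and 5.76, and Kdm5d, another demethylase, had 4.68, 3.50 and 4.22. Among 27 male-biased liver genes 12 were higher and 13 lower, with a median of 0.00 (slightly below 0 under loess). Mup21, a urinary protein gene, was the lowest of them at 7.82, 7.27 and 6.64, and Selenbp2 had 11.45, 11.24 and 12.18. Among 16 measured female-biased genes 6 were higher and 3 lower.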

How the data were processed

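Liver RNA of 3 groups of mice was read on 1 MoGene-2_0-st array each. The values are log2 levels per probe set as the authors deposited them, with a normalization that no label or header names. No header names the genome build of the coordinates, although 99.0% of the genes matched by Entrez ID overlap their GRCm38.p6 position in RefSeq. For each symbol the main-category probe set whose mean over all arrays was highest was kept. A gene was measured if above the 95th percentile of chemosensory receptor probe sets on both arrays. Values below were raised to that level before differences were taken, and 2-fold was the threshold. With 1 array per group no test was run, and precision is limited by the number of arrays. Members and gene lists were chosen with earlier results of these data known.

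Named genes were the 25 with the largest differences each way among measured genes outside predicted, microRNA, small nucleolar RNA, segment and receptor symbols, 5 each way measured on 1 array, every member of lists of up to 30 genes, the 5 largest differences of longer lists and the 3 nearest 2-fold on either side. Other genes named, among them the microRNAs, snoRNAs, glucuronosyltransferases and identical interferon genes, were chosen after their values were seen. The pattern for mitochondrial genome genes was rewritten to the symbols of the files after these were seen. Promoter windows were searched for ISRE, GAS, CCAAT and TATA letters. Alternatives were median centring, quantile and loess scaling, other backgrounds and thresholds, unique probe sets, the mean of probe sets and the series matrix values. The authors' deposited lists for other pairs of groups were not used here. Python 3.11.15, numpy 2.4.6, pandas 2.3.3, statsmodels 0.14.6 and matplotlib 3.10.9 were used, and the scripts were tested on simulated data. Some items that meet the naming rule are not reported here.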

Additional observations from a re-analysis of the deposited data

Results flagged for a closer look

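Intron control probe sets lie outside the genes compared. Of 5331 such probe sets, 28 (0.525%) were at least 2-fold higher on the EEC+TMA array, a signal in data the comparison does not use, and 213 (4.0%) were at least 2-fold lower.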

How the results depend on the processing

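The count of genes at least 2-fold higher, 26, ran from 19 to 39 and that of lower genes, 176, from 138 to 222 over median, quantile and loess scaling, other backgrounds, the mean of probe sets and the series matrix values. With unique probe sets alone 14 genes were higher and 139 lower. At 1.5-fold 152 were higher and 545 lower, and at 3-fold 4 and 48. Without small RNA genes, segments and numbered loci, an alternative chosen after seeing the data, 11 were higher and 106 lower. Quantile scaling kept 26 of the higher and 160 of the lower genes. The share of genes that were lower among the 20% with the longest loci was 35.5%, and 43.7% with the background at the 99th percentile, where fewer genes are tested. No named gene at least 2-fold apart, and no list median of at least 0.1 in size, changed sign under these alternatives, but with unique probe sets alone only 766 of the 813 genes of the naming rule had a value. The median of the male-biased list, 0.00, was 0.04 under quantile scaling and -0.02 with unique probe sets alone, the ends of its range. No paired analysis was possible because each group has 1 array. Leaving out a replicate was not possible for the same reason. Genes near background have only a bound.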
